A study of Mus musculus with 2 samples.

Results

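Splice junctions that span 100000 nt or more were studied in polyadenylated RNA from the kidney of adult mice. They are the rows of the deposited junction table on chromosomes 1 to 19 that carry flag A at 1 and whose end lies at least 100000 nt from their start. There were 702 such junctions among 162426 flag A 1 junctions on these chromosomes (0.432%) and 492582 rows in the whole table. The tissue came from C57BL/6J mice, an inbred strain, at 8 weeks of age, and the labels describe a single group, adult kidney, of 2 libraries, each pooled from male and female littermates. The labels call them biological replicates 1 and 2 from separate tissue samples, but both carry the same donor label, so the spread between them may be technical. The RNA was polyadenylated, depleted of ribosomal RNA and sequenced by strand from both fragment ends. The junction table is on the mouse build mm9 and gives for each row a count that is the sum of 2 counts named R1 and R2. The meaning of flag A is not stated, and neither is the library or replicate behind R1 or R2, so counts are given as the authors' values with no SD.

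The splicing of an intron is complete only after the RNA polymerase has copied it from end to end. A very long intron takes long to transcribe and holds many sequences that resemble splice sites. Introns of this size are well known from genes of neuronal adhesion and signalling, and the first intron of a gene is often its longest. A read that crosses a junction joins the end of the upstream exon, at the 5′ splice site or donor, to the start of the downstream exon, at the 3′ splice site or acceptor.

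No mm9 annotation was used here, so genes were named by intron length. Of the 702 junctions, 684 (97.4%) had the same chromosome, strand and exact length as an intron of GENCODE M21, and for 680 of these all such introns belonged to 1 gene. An intron of the same length on another chromosome existed for 15 junctions (2.14%), and on the other strand of the same chromosome for 1. All 680 paired junctions followed each other along their chromosomes in the same order as the introns in the annotation. Of the others, 4 matched introns of several genes and 18 matched none, and these 22 are described without a gene name. The 680 paired junctions belonged to 503 genes, of which 493 were protein-coding. In contrast, 112 of the 72625 flag A 0 junctions of this length (0.154%) matched an annotated intron.

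The exon sequences that a long junction brings together are shown for 6 of the most abundant junctions whose window lies in coding sequence and for 2 loci where junctions share a splice site. They were read from the GENCODE M21 transcripts (GRCm38), 15 bases on each side, in transcript sense and 5′ to 3′, with the downstream exon in capitals.
Msra, span 126954 nt: cgatccctgtaacagCCAAACACCATGTCA
Igsf11, span 104574 nt: tcgtgtcgctgctcgGTGTCGCAACATCCC
P3h2, span 107922 nt: agggcctacatcaagCTCAACCAGCTGGAA
Clybl, span 129462 nt: ggcgctgcccaggctGAAGGCATCCCACGT
Aig1, span 111208 nt: ctgaaccatggaatgCACACAACGGTTTTG
Chn2, span 133308 nt: cctccgtgtcctctgATGCTGAGGAATACC
Ugt1a10, span 158707 nt: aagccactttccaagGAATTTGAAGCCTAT
Ugt1a7c, span 119065 nt: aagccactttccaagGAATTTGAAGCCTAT
Ugt1a8, span 126322 nt: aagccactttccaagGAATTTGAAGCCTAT
Ugt1a10, span 159379 nt: gtagtcatcccagagGAATTTGAAGCCTAT
Ugt1a7c, span 119740 nt: gtggttgttccggagGAATTTGAAGCCTAT
Ugt1a6b, span 107244 nt: ggaaagctgactcagGAATTTGAAGCCTAT
The 6 windows of the Ugt1a locus end in the same 15 bases, since these junctions enter 1 common exon, and 3 of them are identical over all 30 bases. Over all 680 paired junctions, the last exon base before the intron was G in 83.1% (exact 95% interval 80.1 to 85.8), against 81.7% of the 56422 other flag A 1 junctions that could be paired. The last pair of exon bases was AG in 57.6% (53.8 to 61.4), against 56.7% of the others, and the first base of the next exon was G in 44.0% (40.2 to 47.8), against 48.4%. Intervals here and below cover counting error only.

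The most abundant long junction was that of Msra, which encodes a methionine sulfoxide reductase, with 7514 counts, 3420 in R1 and 4094 in R2 (mm9 chromosome 14, 64932593 to 65059546). The growth hormone receptor gene Ghr followed with 4448 counts, 2794 in R1 and 1654 in R2 (chromosome 15, 3408009 to 3532999), and its intron lies before the coding sequence. Ugt1a10, a UDP-glucuronosyltransferase, had 1660 counts (R1 752, R2 908) and Igsf11, an adhesion protein of the immunoglobulin superfamily, 1514 (R1 816, R2 698). Ugt1a7c, of the same enzyme family, stood at 1166 (R1 556, R2 610). P3h2, a collagen prolyl hydroxylase, had 1071 counts, 648 in R1 and 423 in R2. These 6 were the only long junctions with 1000 counts or more.

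The next places were taken by metabolic and signalling genes. Me3, a mitochondrial malic enzyme, had 964 counts (R1 579, R2 385), and Clybl, a mitochondrial lyase, 849 (R1 390, R2 459). Aig1, an androgen-induced membrane hydrolase, had 816 (R1 381, R2 435) and Chn2, a regulator of Rac signalling, 768 (R1 358, R2 410). In 9 of these 10 junctions the intron is the first of an annotated transcript, Aig1 being the exception, and together they held 38.1% of the 54481 counts of all long junctions. Their genes stood at 17.2 TPM or more, a level per transcript length taken from the separate gene tables on mm10. Msra had 218.7 TPM in replicate 1 and 197.7 in replicate 2, and Chn2, the lowest, 19.3 and 15.1.

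The longest spans carried few counts. The longest was that of Macrod2, a mono-ADP-ribose hydrolase, at 491062 nt with 3 counts (chromosome 2, 140849878 to 141340939). It was followed by an unpaired junction of 479455 nt on chromosome 13 with 21 counts, by Nlgn1 (472564 nt, 2 counts), Magi2 (451063 nt, 11 counts) and Grip1 (443292 nt, 10 counts). Of the 31 junctions of 300000 nt or more, 11 had 10 counts or more, with a median of 4. The highest of them, chosen after its value was seen, was Smyd3 with 153 counts over 310880 nt. The span of all 702 ranged from 100079 to 491062 nt with a median of 137704 nt, and the 131 of 200000 nt or more had a median count of 9, against 16 for the 571 shorter ones. Across the 702, the rank correlation of count and span was -0.13, a description over junctions that share libraries. Just above the threshold lay Cox16 (100079 nt, 3 counts), Chchd6 (100113 nt, 114 counts) and Bach2 (100130 nt, 9 counts). Just below it lay Hivep2 (99885 nt, 9 counts), Zbtb20 (99770 nt, 12 counts) and Tln2 (99624 nt, 50 counts).

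Long junctions had lower counts than other flag A 1 junctions. Their median was 14 (95% interval 12 to 17, quartiles 3 and 49), against 49 (48 to 50, quartiles 10 and 187) for the 161724 others. The median fell with each step of span, from 68 under 1 kb to 41, 29, 22 and 14 in the classes that start at 1, 10, 50 and 100 kb. Of the long junctions, 84 (11.97%, exact interval 9.66 to 14.6) had a single count, against 5.59% of the others. A count of 10 or more was reached by 400 (56.98%, 53.2 to 60.7), against 76.0%, and 100 or more by 100 (14.2%, 11.7 to 17.1), against 36.6%. Junctions are not replicates of a condition, so these differences are given with counting intervals and no test.

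**Figure D1:**
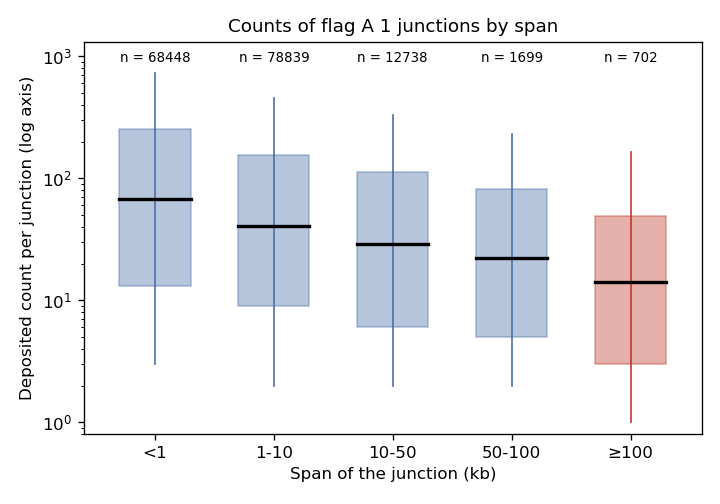
Deposited counts per flag A 1 junction on a log axis, by span in kb, with boxes from the lower to the upper quartile, black lines at the median and thin lines from the 10th to the 90th percentile. The median falls from 68 in the shortest class to 14 in the 702 junctions of 100 kb or more, drawn in red.

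The genes that hold long introns were themselves expressed at lower levels. The median over 501 paired genes with a level was 3.10 ± 0.262 TPM (SD, n = 2 libraries), 3.28 in replicate 1 and 2.91 in replicate 2. For genes paired with other flag A 1 junctions it was 7.32 ± 0.424 TPM (SD, n = 2). The median was 5.655 ± 0.488 TPM for spans of 50 to 100 kb and 7.2 ± 0.445 for 10 to 50 kb (SD, n = 2). A gene paired at several spans counted in each set. Of the 501 genes, 354 (70.7%) reached 1 TPM in both libraries, against 77.0% of those paired with other junctions. Set against the mean TPM of their genes, long junctions lay close to the neighbouring span classes in the median, but not in the lower quartile. The median log2 ratio of count to TPM, in genes at 1 TPM or more, was 2.38 (2.15 to 2.58, 493 junctions), against 2.33 (2.19 to 2.47) for spans of 50 to 100 kb and 2.42 (2.38 to 2.47) for 10 to 50 kb. It was 2.63 (2.599 to 2.650) for 1 to 10 kb and 2.77 (2.72 to 2.82) below 1 kb, where only 6.55% of junctions could be paired because short lengths recur. The lower quartile of this ratio fell with each step of span, from 1.55 below 1 kb to 0.52 for 50 to 100 kb and 0.22 for the long junctions.

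**Figure D2:**
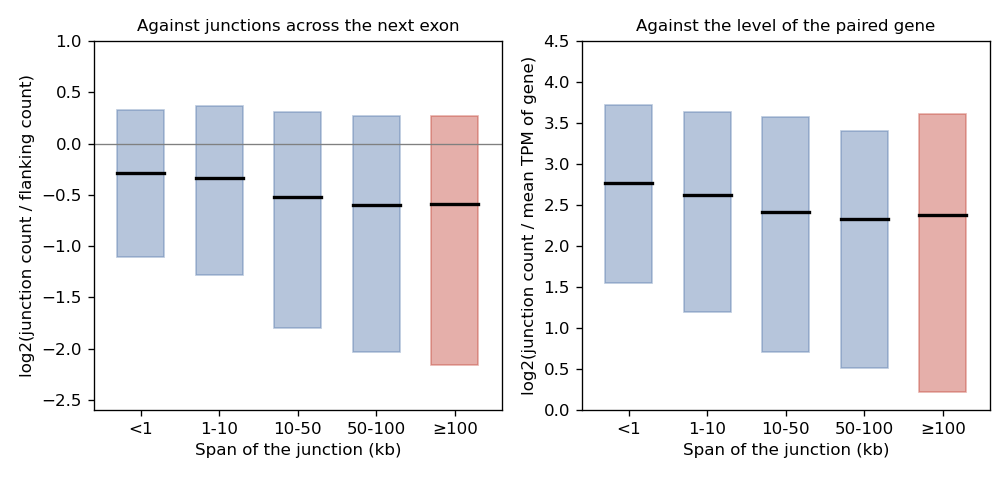
Junction counts relative to the flanking junctions of the same strand (left, log2 ratio) and to the mean TPM of the paired gene (right, log2 ratio), by span in kb, with boxes between the quartiles and black lines at the median. The medians of the longest class, in red, are -0.59 and 2.38, beside -0.60 and 2.33 in the class of 50 to 100 kb.

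A long junction was also compared with flag A 1 junctions of its strand across an adjoining exon, taken as lying within 500 nt of either end. The highest count on each side served as the flank, whichever transcript it belongs to. Where both sides had 20 counts or more, their log2 ratios were averaged. For 370 long junctions with a flank of 20 counts or more, the median log2 ratio to the flank was -0.59 (-0.70 to -0.42). In 121 of them (32.7%) the ratio was above 0. An averaged ratio can be above 0 where 1 flank is higher, as in Me3 (964 counts, 112 upstream and 1559 downstream, ratio 1.21). The ratio was -0.60 (-0.70 to -0.47) for spans of 50 to 100 kb, -0.53 (-0.56 to -0.49) for 10 to 50 kb and -0.29 (-0.30 to -0.27) below 1 kb. In 69 of the 370 a flank was itself a long junction, so that some pairs enter with opposite signs. Against flanks that were not long the median was -0.63 (-0.74 to -0.43, 337 junctions), with 112 (33.2%) above 0. The value depends on the minimum set for the flank, and with flanks of 1 count or more it was -0.12 over 609 junctions. Clybl had 849 counts against 60 downstream, a log2 ratio of 3.82. The next highest were St7, a tumour suppressor candidate (360 counts against 48, ratio 2.91), the scavenger receptor Colec12 (219 counts, 2.66), P3h2 (1071 against 181, 2.56) and Zbtb20 (181 counts, 2.35). The lowest ratios were those of Ugt1a9 (4 counts against 5663), a minor junction of Ghr (2 against 2188), Nmnat3 (1 against 383), Eps8 (1 against 372) and an unpaired junction on chromosome 13 (2 against 432).

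Long introns were often first introns. Of the 680 paired junctions, 350 (51.5%, 47.6 to 55.3) were the first intron of at least 1 annotated transcript, against 27.4% of the other paired junctions and 47.8% (45.4 to 50.3) of those of 50 to 100 kb. A flag A 1 junction across the exon upstream was present for 45.3%, against 81.6% of all others, and across the exon downstream for 77.1%, against 83.4%. In 540 (79.4%) the intron lay within the coding sequence of some transcript, and in 99 (14.6%) before it. In 3 the intron lay after the coding sequence, and 38 were known from noncoding transcripts only. Within the coding sequence lay 86.0% of the other paired junctions and 71.5% of those of 50 to 100 kb. Before it lay 9.20% and 21.9%.

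A splice site was shared with another junction of the table, of any flag, by 441 of the 702 (62.8%, 59.1 to 66.4), against 44.7% of the other flag A 1 junctions and 69.6% (67.3 to 71.8) of those of 50 to 100 kb. For the long junctions the share dropped to 29.5% when only flag A 1 partners were counted. That value was not set against the other junctions, so the comparison covers partners of any flag only. At a shared donor the long junction held a median of 88.0% of the counts, and at a shared acceptor 72.7%. These medians were 95.2% and 93.1% for the others, and 88.6% and 77.4% for spans of 50 to 100 kb. At both ends together, 523 long junctions (74.5%) held over 50% of the counts, and 407 (58.0%) over 90%. The shares were 88.0% and 79.6% for the others, and 74.1% and 55.6% for spans of 50 to 100 kb. Among those of 20 counts or more with a share below 100%, the junctions of Ldlrad3 (464 counts), Ldb2 (257), Nfia (200), Zswim6 (169) and Sugct (337) shared an end and held between 99.4% and 99.8% of the counts at the end where their share was lowest.

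The Ugt1a locus, where a row of alternative first exons is spliced to common exons that encode the shared part of these conjugating enzymes, gave the 3 lowest shares among long junctions of 20 counts or more, those of Ugt1a6b, Ugt1a7c and Ugt1a8. Below 20 counts, minor junctions of other genes held less than Ugt1a6b did, such as 0.0421% for Ghr (2 counts) and 0.197% for Eps8 (1 count). Of 16550 counts at the common acceptor (chromosome 1, 90111618), 7 long flag A 1 junctions held 3982 (24.1%). Ugt1a2, at a span of 13543 nt, held 47.7% with 7892 counts (R1 3698, R2 4194), and Ugt1a5, at 48140 nt, 16.8% with 2788 (R1 1431, R2 1357). Ugt1a10 held 10.03% at 158707 nt and a further 3.97% at 159379 nt (657 counts, R1 287, R2 370). Ugt1a7c held 7.05% at 119065 nt and 1.23% at 119740 nt (203 counts, R1 112, R2 91). Ugt1a8 (221 counts, 1.34%), Ugt1a6b (71 counts, 0.429%) and Ugt1a9 (4 counts, 0.0242%) completed the 7 long flag A 1 junctions. Other junctions held the remaining counts of the acceptor. The largest of these carried flag A 0, with 773 counts (4.67%) over 188984 nt and 495 (2.99%) over 87434 nt. The identical 30 bases of Ugt1a10, Ugt1a7c and Ugt1a8 shown above mean that short reads across these junctions need sequence farther out to be told apart, so the split of counts among them is uncertain. At the gene level Ugt1a8 stood at 0.19 and 0.13 TPM in replicates 1 and 2, Ugt1a7c at 65.3 and 64.2, and Ugt1a10 at 99.2 and 110.1, and these genes share exons. A pair of flag A 0 junctions into the same acceptor, with spans of 126994 and 144037 nt, had the same 225 counts, 87 in R1 and 138 in R2.

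**Figure D3:**
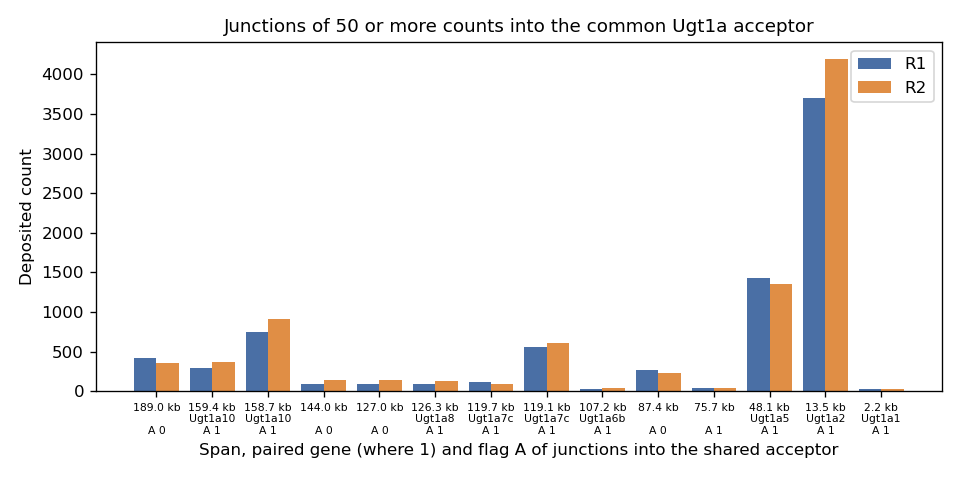
R1 and R2 counts (bars from 0) of the junctions with 50 or more counts that enter the common Ugt1a acceptor, ordered by span in kb, with the paired gene where there is 1 and flag A. The Ugt1a2 junction of 13543 nt is the highest at 3698 and 4194, and the Ugt1a10 junction of 158707 nt reaches 752 and 908.

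Other long junctions were minor routes into an acceptor used mostly from a nearer donor. For Prlr, the prolactin receptor gene, the junction of 115779 nt had 23 counts (R1 17, R2 6), 1.45% of its acceptor, where the junction of 69554 nt had 1361. For Arhgap24, a GTPase-activating protein gene, 27 counts over 116056 nt made up 3.21%, beside 781 over 72328 nt. Outside the naming rule, and chosen after the values were seen, Kcnq1, a potassium channel gene, held 3.95% (28 counts over 164533 nt) beside 669 over 62215 nt. In 2 more genes chosen in this way the routes were closer. Dab2, an adaptor of megalin endocytosis, had 637 counts over 116906 nt (29.0%; R1 265, R2 372) and 1467 over 29873 nt. Rbms1, an RNA-binding protein gene, had 576 over 120218 nt (48.2%; R1 303, R2 273) and 501 over 38645 nt. At the main acceptor of Ghr the order was the opposite, since the 124991 nt junction held 93.7% of 4748 counts and 166 of the others belonged to a Ghr junction of 124249 nt.

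Of the 503 genes, 389 had 1 long junction, 114 had 2 or more and 41 had 3 or more. Zbtb20, a zinc finger repressor, and Fhit, a fragile-site gene, had 6 each. Those of Zbtb20 ranged from 2 to 181 counts and lay before the coding sequence or in noncoding transcripts. Those of Fhit ranged from 3 to 84 counts over spans of up to 395751 nt, and the 84 counts (R1 30, R2 54) crossed 308111 nt. Cdh13, an adhesion gene of the cadherin family, had 5, with 66, 195, 101, 216 and 61 counts in the order of the transcript. All 5 held every count at both of their ends. Macrod2 also had 5, with 11 counts in all. Sugct, a mitochondrial transferase gene, had 4 of 119 to 337 counts (987 in sum) at 16.9 and 17.3 TPM in replicates 1 and 2. The other genes with 4 were Ghr, Gpc6, Erbb4, Pde4d, Astn2, Magi2, Ptprn2, Grm7 and Dgkb, whose sums ran from 10 (Dgkb) to 4631 (Ghr).

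Lists of genes with known long introns covered different ranges. The lists were drawn up with earlier results of these data known and are described by counts. Of 14 transcription factor genes, 9 had 18 long junctions with a median of 36.5 counts. Among them Esrrg, an orphan nuclear receptor, had 222 counts over 184119 nt (R1 99, R2 123) and 203 over 249921 nt (R1 126, R2 77), at 15.04 and 16.03 TPM in replicates 1 and 2. Nfia had 200, Nfib 133 and Glis3, a factor tied to cystic kidney, up to 96. No long junction was paired with Foxp1, Tcf7l2, Ppargc1a, Meis1 or Meis2.

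Of 12 polarity, adhesion and phosphatase genes, 10 had 25 long junctions with a median of 52 counts. The receptor phosphatase Ptprk had the highest, 247 (R1 121, R2 126), followed by Cdh13 at 216 and the polarity gene Pard3 at 151. Ctnna1 and Dlg1 had none. Of 12 signalling genes, 7 had 20 with a median of 23, led by Ghr, with Egfr, the epidermal growth factor receptor gene, at 105 (R1 49, R2 56). Of 8 fragile-site and enzyme genes, 6 had 20 with a median of 16. Immp2l, a mitochondrial peptidase gene, had 97 (R1 29, R2 68) over 251223 nt, and Gphn, which encodes gephyrin, had 96 (R1 35, R2 61) over 116510 nt.

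Of 16 genes listed for long introns known from brain, 11 had 25 long junctions, but with a median of 2 counts. Only 2 of these reached 10 counts, those of Auts2 (25) and Ntm (24), and the median level of the list was 0.335 TPM, with Lrp1b at 0 TPM in both libraries. The neuronal markers Snap25 (0.790 ± 0.693 TPM, SD, n = 2), Syt1 (0.450 ± 0.339) and Rbfox3 (0.190 ± 0.0141) were below 1 TPM on average, and Syt1 and Rbfox3 had long junctions of 4 and 2 counts. Kidney markers ranged from 24.7 ± 3.22 TPM for Nphs1 of the podocyte to 5069 ± 1063 for Slc34a1 of the proximal tubule, and the liver gene Alb stood at 7.65 ± 0.771.

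Across the 678 paired junctions whose gene had a level, the rank correlation of junction count with mean TPM was 0.60, a description over junctions that share genes and libraries. The median count was 2 (quartiles 1 and 5) for 171 junctions of genes below 1 TPM, 21 (6.75 and 45.2) for 324 of genes from 1 to 10 TPM, and 64 (13.5 and 219) for 183 of genes at 10 TPM or more. Chosen after their values were seen, Tnfaip8 had 369.0 TPM and 7 counts in its long junction, and Arhgap24 105.7 TPM and at most 27 counts in its 3.

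The contig table, on the same build, lists stretches of transcribed sequence. A contig of the same strand reached within 5 nt of both ends in 611 long junctions (87.0%, 84.3 to 89.4), against 93.4% of the others and 91.8% (90.3 to 93.0) of those of 50 to 100 kb. Contigs also lay inside the spans. They covered a median of 11.5% of the span (quartiles 1.64 and 32.3), against 17.0% for 50 to 100 kb and 41.1% for all other flag A 1 junctions. Coverage moved with the level of the gene, from a median of 0.242% below 1 TPM to 12.7% between 1 and 10 TPM and 41.7% at 10 TPM or more. Contigs covered 87.2% of the 119673 nt span of Cmip (575 counts), 82.4% of that of Dab2 and 82.3% of that of Trabd2b, a metalloprotease gene (653 counts), which were among the highest and were chosen after their values were seen. Chosen in the same way, 3 junctions of Cdh13 with 101 to 216 counts had 1.30% to 1.84% covered, and the Lama2 junction with 158 counts had 1.49%. Coverage here counts every contig of the strand inside the span, whichever transcript it belongs to.

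**Figure D4:**
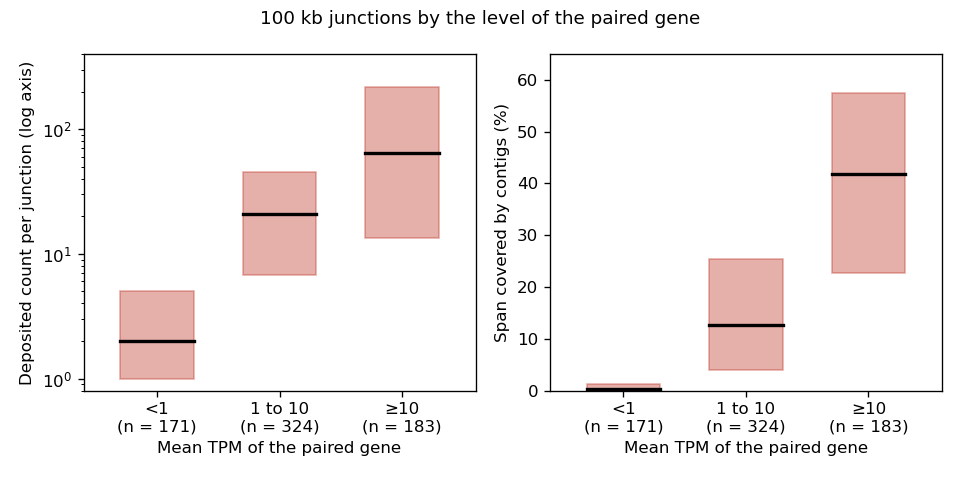
Count per long junction (left, log axis) and percent of its span covered by contigs of the same strand (right), by the mean TPM of the paired gene, with boxes between the quartiles and black lines at the median. The median count rises from 2 to 21 and 64, and the median coverage from 0.242% to 12.7% and 41.7%.

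R1 and R2 gave similar counts for most long junctions. R1 summed to 26241 and R2 to 28240, so R1 held 48.2%, against 46.0% in the whole table. The abundant junction of Ghr alone gave 2794 of the R1 counts and 1654 of the R2 counts, so this share leans on it. The rank correlation of R1 and R2 across the 702 was 0.86. Both held a count in 533 long junctions (75.9%, 72.6 to 79.0), against 86.6% of the others, while 83 were at 0 in R1 and 86 at 0 in R2. At equal totals the shares were close. With 2 to 4 counts both columns were filled in 45.6% (37.0 to 54.3), against 41.7% of the others, with 5 to 9 in 90.2% (81.7 to 95.7), against 82.3%, and with 10 to 49 in 98.7% (96.2 to 99.7), against 97.9%.

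An exact binomial test asked which junctions departed from the R1 share of the whole table. Of 143515 rows with 10 counts or more, 8.80% were called (Benjamini-Hochberg adjusted p below 0.05 and an absolute log2 ratio of 1 or more), and of the 400 long junctions tested, 38 were called (9.50%). The split was 19 higher in R1 (4.75%), where 2.82% of all tested rows were called, and 19 higher in R2 (4.75%), where 5.98% were. With no count filter the shares stood farther apart, with 24 of all 702 long junctions called (3.42%), 15 higher in R1 and 9 in R2, against 1.80% of all 492582 rows (0.604% higher in R1 and 1.20% in R2). In that setting 56.98% of the long junctions and 29.1% of all rows had 10 counts or more. The test compares the reads of the 2 columns and not conditions. The called junctions had a median of 34 counts, and 6 of them had 100 or more.

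The largest differences rested on few counts. Nsmce2, a gene of the SMC complex that repairs DNA, had 0 counts in R1 and 21 in R2 (exact binomial adjusted p = 6.98e-05). Pclo (0 and 12, exact adjusted p = 0.00542), Grip1 (0 and 10, exact adjusted p = 0.0151), a minor junction of Chchd6 (1 and 16, exact adjusted p = 0.00613) and Efna5 (1 and 15, exact adjusted p = 0.009997) came next among those higher in R2. Higher in R1 were Tmem108 (9 and 1, exact adjusted p = 0.0357), Mast4 (15 and 2, exact adjusted p = 0.00348), Cyp7b1, a steroid hydroxylase gene (28 and 6, exact adjusted p = 0.000233), St6galnac5 (25 and 6, exact adjusted p = 0.00103) and Pdgfd (31 and 8, exact adjusted p = 0.000378). The gene levels of Nsmce2 were 5.46 and 6.65 TPM in replicates 1 and 2, and those of Cyp7b1 1.64 and 1.13. For the abundant junction of Ghr the log2 ratio of R1 to R2 was 0.99 (exact binomial adjusted p = 1.63e-109), just under the size asked for.

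**Figure D5:**
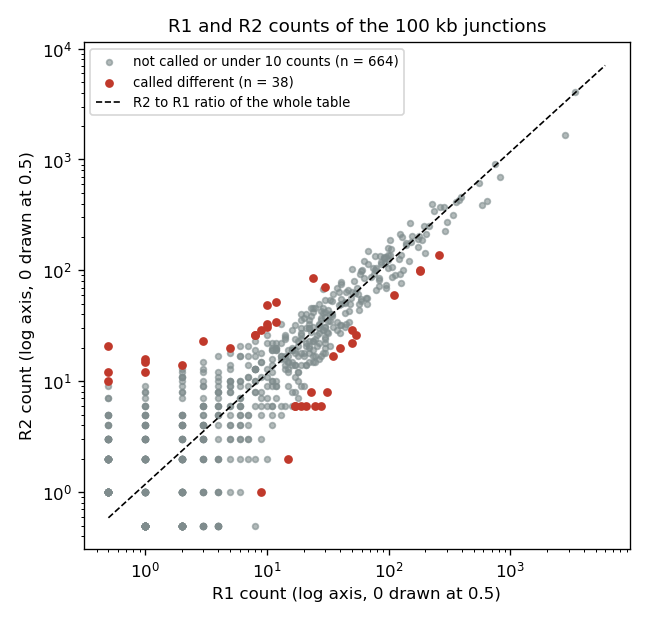
R1 and R2 counts of the 702 long junctions on log axes, with a count of 0 drawn at 0.5 and the dashed line at the R2 to R1 ratio of the whole table. The 38 called junctions, in red, lie away from the line on both sides, mostly below 100 counts.

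In 3 genes a pair of long junctions was called, Vti1a, Gmds and Pdgfd, a set chosen after the values were seen. Both of Vti1a, a gene of vesicle fusion, were higher in R2 (10 and 49, 30 and 71). In Gmds, an enzyme of fucose synthesis, the first intron was higher in R1 (50 and 29) and a later one in R2 (10 and 33). In Pdgfd, a platelet-derived growth factor gene, the junctions share a donor and their acceptors lie 18 nt apart. The nearer acceptor (119553 nt) had 31 counts in R1 and 8 in R2, and the farther one (119571 nt) 10 and 31 (exact adjusted p = 0.0338), while their sums were 41 and 39. The spliced sequences differ by the 18 bases in capitals, which stand in the first product alone.
Pdgfd, 119553 nt: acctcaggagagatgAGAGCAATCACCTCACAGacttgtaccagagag
Pdgfd, 119571 nt, with the downstream exon in capitals: acctcaggagagatgACTTGTACCAGAGAG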

How the data were processed

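The authors deposited a count per splice junction on mm9 with flags A and C and its parts R1 and R2, and for the contigs a signal level on mm9. The deposited gene tables (mm10, annotation M4, per the text records beside them) give TPM, summed over genes and spike-ins, and an expected count per gene. Per the file values, the junction table also holds a deposited score limited to 1000, another whole-number score and a fraction between 0 and 1, both of unstated meaning, and the contig table a like fraction. Aligner and junction caller: not given in the sources used here. R1 summed to 25232776 and R2 to 29635475 counts, and expected counts to 67252609 (replicate 1) and 87330097 (replicate 2) over genes.

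The 702 junctions, the lists and the tests were chosen with earlier results of these data known. Genes were paired by chromosome, strand and exact intron length with GENCODE M21, with no conversion of coordinates. Positions are 1-based. Junctions were named by rule: the highest counts, the longest spans, those nearest the threshold, and the extremes of R1 to R2 difference, share at a splice site and ratio to the flank. Intervals are exact (Clopper-Pearson, 95%) or, for medians, from order statistics. R1 was tested against its share of all counts (46.0%) with a two-sided exact binomial test in scipy 1.17.1. Its p-values were Benjamini-Hochberg adjusted over all rows with 10 counts or more. A prior check on simulated data drew R1 from the same binomial, with no spread between libraries. That check cannot show how the test performs on the real counts. A prior count of 0.5 entered ratios with a 0. Alternatives covered span, count filters, partners, flanks and single columns or replicates. Tables were made in Python 3.11.15 with pandas 2.3.3. A few results for single genes and 1 sequence are not reported here.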

Additional observations from a re-analysis of the deposited data

Results flagged for a closer look

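Outside the chosen junctions, 112 flag A 0 junctions of 100000 nt or more (0.154%) shared chromosome, strand and length with an annotated intron. Among the 702 long flag A 1 junctions, 1 had the length of an intron on the other strand of its chromosome. How many of the 112 share a length only by coincidence was not tested. The 112 stood among 72625 flag A 0 junctions of this length, of which 60186 (82.9%) had a single count and 1225 had 10 or more.

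Chromosome X held 28 flag A 1 junctions of 100000 nt or more, also outside the rule. All 28 matched an annotated intron by length, and their counts had a median of 11.5 and a maximum of 853.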

How the results depend on the processing

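No paired analysis was possible because there is a single group and no source assigns R1 or R2 to a replicate. Of 35 alternatives to the main values, 16 stayed within the interval of the main value, or within 1.5 times a count. A span minimum of 50000 nt gave 2401 junctions with a median of 19 counts, 79.3% filled in both columns, and 200000 nt gave 131 with a median of 9 and 67.9%. The median count was 20 over junctions of 2 or more counts, of which 86.2% were filled in both columns. It was 37 where the deposited 0 to 1 measure was at most 0.1, 6 in R1 alone and 8 in R2 alone, as each column holds part of the sum. With no count filter, 24 of 702 junctions (3.42%, against 1.80% of all rows) were called for R1 against R2, in place of 38 of 400 (9.50%, against 8.80%). A shared splice site was found for 33.8% with partners of 5 or more counts, 29.5% with flag A 1 partners, 57.7% in R1 alone and 56.2% in R2 alone. The log2 ratio to the flank was -0.85 in R1 alone and -0.12 with flanks of 1 count or more. The median gene level was 2.91 without replicate 1 and 3.28 without replicate 2, and 6.10 TPM over genes at 1 TPM or more. The 2 single-replicate levels, counted among the 16, had to fall within their interval, which is the mean ± SD of these same values. Of the 10 R1 to R2 differences named, none turned direction, but these alternatives could not have turned them. The count filters leave each log2 ratio as it was. The other settings shift only the expected R1 share, and by little. With the share taken from the median ratio, the log2 ratio of Pdgfd went from 2.19 to 2.20. Tmem108, Mast4, Pclo, Grip1, Chchd6 and Efna5 were not tested at 20 counts or more, and Tmem108 and Grip1 were not called with no count filter. Chosen after seeing the data, the R1 share without the mitochondrial chromosome left 38 junctions called, the restriction to paired junctions left the median count at 14, and flanks that were not long gave a ratio of -0.63. Junctions of a few counts limit what the depth can show.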
